A study of Mus musculus with 50 samples.

Results

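The genes described here are the anterior members of the HoxA cluster that were listed by name, *Hoxa2*, *Hoxa3*, *Hoxa4*, *Hoxa5* and *Hoxa6*, and all 5 were among the 18055 genes of the RNA-seq table. They were followed in mouse embryonic stem cells (ESCs) of the E14 line (WT) and in CRISPR/Cas9 mutants of it. *Ezh2* KO cells carry a deletion of *Ezh2* and keep *Ezh1*, and *Ezh1/2* dKO cells carry deletions of both genes. *Ezh2* Y726D and *Ezh2* R685C are point mutations of EZH2 in cells that also lack *Ezh1*; the SUZ12 and H3K27me3 labels of the Y726D line name only the point mutation and were taken as the same line. An additional line was the *Ezh1/2* dKO with HA-tagged EZH1 put back (*Ezh1/2* dKO + HA-EZH1). RNA-seq had 2 libraries for each of 4 lines, WT and all mutants but R685C and the HA-EZH1 cells. The peak lists used, of chromatin immunoprecipitation (ChIP-seq) and of accessible chromatin (ATAC-seq), came from 1 library per line and target, so they have no replicate check. SUZ12 libraries of the *Ezh2* Y726D line treated with DMSO (vehicle) or MG132 are also in the series and were not analysed here. WT H3K27ac was not analysed here.

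HOX genes encode homeodomain transcription factors that give segments along the body axis their identity, and within a cluster the genes are read in the order in which they lie on the chromosome. *Hoxa2* patterns the second branchial arch and the hindbrain, *Hoxa3* the pharyngeal organs such as thymus and parathyroid, *Hoxa4* and *Hoxa5* the cervical vertebrae and, for *Hoxa5*, the lung, and *Hoxa6* the thoracic level. In ESCs the cluster is a well-known target of Polycomb repressive complex 2 (PRC2), in which EZH1 or EZH2 methylates lysine 27 of histone H3 and SUZ12 is a core subunit without enzyme activity. H3K27me3 is the repressive product and H3K27ac, on the same residue, marks active promoters and enhancers.

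On chromosome 6 of the mm9 build the 5 genes lie side by side on the minus strand, in a locus of 50989 bp (chr6:52112350-52163338). The transcript bodies used here were chr6:52112350-52115412 for *Hoxa2*, chr6:52119939-52122648 for *Hoxa3*, chr6:52139670-52141752 for *Hoxa4*, chr6:52151753-52154586 for *Hoxa5* and chr6:52155430-52158721 for *Hoxa6*. For *Hoxa3* this is the shortest coding transcript. Longer *Hoxa3* transcripts start at position 52163338, on the far side of *Hoxa6*, and read through the *Hoxa4* to *Hoxa6* interval, so most of the locus is also *Hoxa3* intron. *Hoxa7* is the neighbour beyond *Hoxa6*.

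The 250 bases before the start site of each member are shown because CG dinucleotides differ widely between them and because SUZ12 peaks lay over or near them; CG is in capitals, and the *Hoxa3* window precedes its most upstream start. The bases were read from the mm9 genome.
Hoxa2, chr6:52115413-52115662, minus strand: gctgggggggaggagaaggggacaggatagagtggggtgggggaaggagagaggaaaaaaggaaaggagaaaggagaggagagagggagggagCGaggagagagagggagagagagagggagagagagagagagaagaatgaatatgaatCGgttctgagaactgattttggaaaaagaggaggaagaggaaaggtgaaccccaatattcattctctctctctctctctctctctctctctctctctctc
Hoxa3, chr6:52163339-52163588, minus strand: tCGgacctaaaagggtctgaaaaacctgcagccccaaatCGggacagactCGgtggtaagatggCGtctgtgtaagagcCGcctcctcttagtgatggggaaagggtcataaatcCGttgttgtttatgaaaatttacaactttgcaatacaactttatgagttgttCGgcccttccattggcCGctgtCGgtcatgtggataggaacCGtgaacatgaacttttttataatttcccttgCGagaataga
Hoxa4, chr6:52141753-52142002, minus strand: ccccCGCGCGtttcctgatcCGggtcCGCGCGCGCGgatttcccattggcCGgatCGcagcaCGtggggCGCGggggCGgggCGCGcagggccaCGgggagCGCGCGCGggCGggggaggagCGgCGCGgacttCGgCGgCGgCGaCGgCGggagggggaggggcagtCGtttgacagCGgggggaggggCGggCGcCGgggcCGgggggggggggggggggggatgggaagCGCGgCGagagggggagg
Hoxa5, chr6:52154587-52154836, minus strand: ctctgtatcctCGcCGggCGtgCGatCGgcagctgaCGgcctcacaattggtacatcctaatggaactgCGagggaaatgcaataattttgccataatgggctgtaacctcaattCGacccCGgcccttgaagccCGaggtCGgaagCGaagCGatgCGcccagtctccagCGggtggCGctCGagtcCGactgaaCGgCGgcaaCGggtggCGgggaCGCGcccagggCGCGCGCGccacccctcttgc
Hoxa6, chr6:52158722-52158971, minus strand: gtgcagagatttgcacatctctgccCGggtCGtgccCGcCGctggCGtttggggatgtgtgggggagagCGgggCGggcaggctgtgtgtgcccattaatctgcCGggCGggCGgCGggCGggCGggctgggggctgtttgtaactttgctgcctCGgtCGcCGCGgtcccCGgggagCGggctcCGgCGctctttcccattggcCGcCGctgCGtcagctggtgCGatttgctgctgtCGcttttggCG
The *Hoxa4* window held 41 CG dinucleotides, a number reached by 1.54% of 45992 start sites of protein-coding transcripts, where the median was 9. *Hoxa5* had 28 and *Hoxa6* 27, numbers reached by 10.6% and 11.98% of start sites. *Hoxa3* had 11, reached by 46.7%, and *Hoxa2* only 2, reached by 86.0%.

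In WT cells SUZ12 covered 47.6% of the locus in 13 peaks, and each of the 5 genes had a peak within 5 kb of an annotated start site, as did 14.5% of 22225 protein-coding genes. The windows of neighbouring members overlap and share peaks, so such counts are not independent. The strongest peak (-log10 p of 83.2) ran for 7083 bp over *Hoxa5* and *Hoxa6*, with its summit in a coding exon of *Hoxa5*, and was among the top 8.09% of the WT list. The next were a peak in the *Hoxa3* intron between *Hoxa3* and *Hoxa4* (74.5), a peak over *Hoxa2* with its summit just upstream of the gene (60.3), and another peak of the same intron at chr6:52124831-52125694 (55.7). *Hoxa6* was covered over its whole body, *Hoxa3* over 85.5%, *Hoxa2* over 80.1%, *Hoxa5* over 75.8% and *Hoxa4* over 59.0%, the lowest share.

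In *Ezh2* KO cells, where EZH1 is the remaining enzyme, all 5 genes kept a SUZ12 peak within 5 kb (4.22% of all genes), but the peaks covered only 13.1% of the locus. The 12 peaks lay entirely inside WT peaks and overlapped 8 of the 13, covering 27.5% of the WT peak bases. The best retained was *Hoxa5*, with 39.7% of its body covered and a -log10 p of 32.3, followed by *Hoxa6* with 35.9%. *Hoxa2* kept 15.1% and *Hoxa4* 10.8%, and the short *Hoxa3* body had none. In *Ezh1/2* dKO cells no SUZ12 peak lay in the locus (0 of 5 genes, against 1.03% of all genes); the closest was 20894 bp from any start site of a member.

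In *Ezh2* Y726D cells SUZ12 covered 9.08% of the locus in 9 peaks, all of them inside WT peaks. Of the 5 genes, 4 had a peak within 5 kb (10.3% of all genes) and *Hoxa4* had none, the closest peak being 11560 bp from its start. *Hoxa5* was again the best covered (40.3% of its body, -log10 p of 16.1), ahead of *Hoxa6* (22.2%), *Hoxa2* (12.6%) and *Hoxa3* (9.15%). All 9 peaks were weak, with -log10 p from 10.3 to 16.1, and none passed a p of 1e-20. A SUZ12 peak in *Ezh2* KO and none in *Ezh2* Y726D, the pattern of *Hoxa4*, was found at 2.33% of the 3212 genes with a WT SUZ12 peak. In *Ezh2* R685C cells the picture was close to WT in extent: 61.3% of the locus was covered, 12 of 13 WT peaks were overlapped with 96.9% of their bases, and all 5 genes had a peak (8.44% of all genes). R685C coverage of the 5 bodies ranged from 78.1% at *Hoxa4* to 100% at *Hoxa6*. Read depth is unknown here, and the SUZ12 lists differed in length (WT 5404 peaks, R685C 3231, Y726D 3366, *Ezh2* KO 1578, dKO 317), so coverage is compared between lines only as called.

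**Figure D1:**
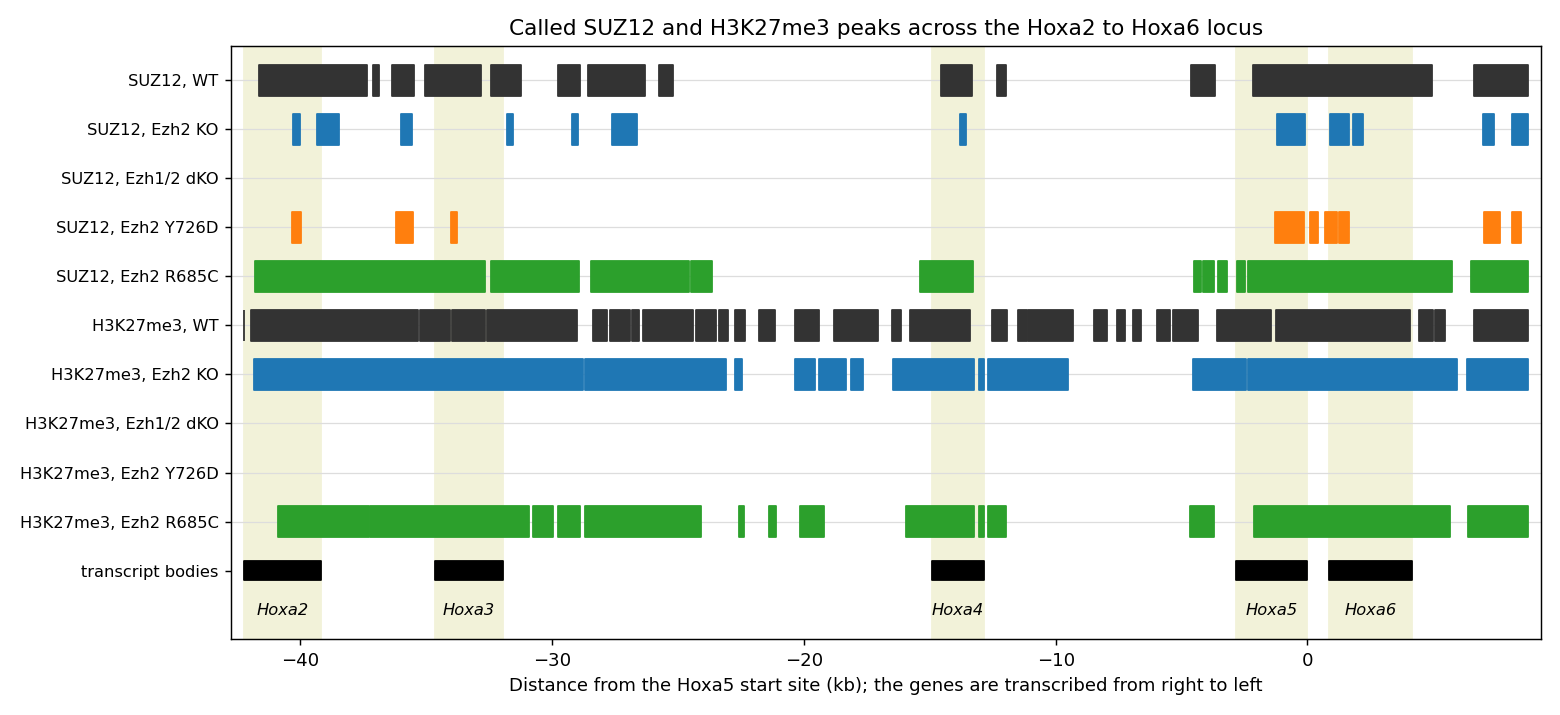
Called SUZ12 and H3K27me3 peaks (bars, cut at the ends of the locus) in each line against the distance in kb from the *Hoxa5* start site; shading marks the 5 transcript bodies, 1 library per row. *Ezh1/2* dKO has no bar for either target, and *Ezh2* Y726D has 9 short SUZ12 bars and no H3K27me3.

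In each line with SUZ12 peaks, the peaks were richer in CG than the rest of the locus. The windows before the start sites did not follow this at every member. *Hoxa4*, with 41 CG, had no *Ezh2* Y726D peak within 5 kb, and *Hoxa2*, with 2, had peaks in both *Ezh2* KO and *Ezh2* Y726D. *Hoxa5* and *Hoxa6*, with 28 and 27, also had peaks in both. WT SUZ12 peaks held 66.8% of the 1363 CG dinucleotides of the locus on 47.6% of its bases (37.5 CG per kb inside, 17.0 outside). In *Ezh2* KO the density inside the remaining peaks was 55.0 CG per kb (22.5 outside), and in *Ezh2* Y726D it was 61.7 (23.2 outside). The wide *Ezh2* R685C peaks had 31.6 CG per kb (19.0 outside). These are densities over 1 library each, and shorter peaks lie closer to their summits. Below are 200 bases around 2 intronic summits, shown as a site without and a site with a SUZ12 peak in *Ezh2* Y726D, again with CG in capitals and from mm9.
WT summit with no Ezh2 Y726D peak, chr6:52127291-52127490, minus strand: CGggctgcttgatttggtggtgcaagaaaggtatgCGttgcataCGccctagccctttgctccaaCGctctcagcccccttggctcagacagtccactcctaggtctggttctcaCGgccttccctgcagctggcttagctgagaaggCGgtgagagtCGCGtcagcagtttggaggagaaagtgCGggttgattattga
Ezh2 Y726D summit, chr6:52161836-52162035, minus strand: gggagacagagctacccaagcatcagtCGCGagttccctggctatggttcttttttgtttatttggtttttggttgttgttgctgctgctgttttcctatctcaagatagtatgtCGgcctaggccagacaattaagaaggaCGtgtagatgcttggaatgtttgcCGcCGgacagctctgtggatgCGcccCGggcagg
At the first, the WT summit in the *Hoxa3* intron, the WT peak had a -log10 p of 74.5 and the *Ezh2* KO peak 20.5, whereas *Ezh2* Y726D had none. At the second, *Ezh2* Y726D had a -log10 p of 16.0. The windows held 9 and 8 CG dinucleotides, so this pair did not differ in CG as the peaks did over the locus.

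H3K27me3 covered the locus in WT, *Ezh2* KO and *Ezh2* R685C and was not called in it in the other lines. The share of the locus covered was 78.1% in WT, 79.9% in *Ezh2* KO and 63.5% in *Ezh2* R685C, and all 5 genes had a peak within 5 kb in each (18.8%, 14.8% and 24.7% of all genes). In *Ezh1/2* dKO and *Ezh2* Y726D the count was 0 of 5, against 0.099% and 1.35% of all genes; the closest peak in *Ezh2* Y726D was 137824 bp from a member's start. The *Ezh2* Y726D line thus had SUZ12 peaks at 4 genes and H3K27me3 peaks at none.

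The called extent of H3K27me3 differed little between WT and *Ezh2* KO at these genes, although SUZ12 coverage did. The 2 lists differed in length (16754 and 8956 peaks) and in the highest -log10 p in the locus (35.3 and 529), and read depth is unknown. Called extent is therefore no measure of the amount of H3K27me3. The value of 529 was that of a peak running through *Hoxa7*. Over the bodies of the members the highest in *Ezh2* KO was 327, at *Hoxa2* and *Hoxa3*. The study measured H3K27me3 density inside and beside SUZ12 peaks and reported less spreading in *Ezh2* KO. Of the 30 WT H3K27me3 peaks, 24 were overlapped in *Ezh2* KO, with 88.3% of their bases, and 20 in *Ezh2* R685C, with 71.9%. In *Ezh2* KO all 12 SUZ12 peaks lay inside H3K27me3 peaks, which covered 79.9% of the locus. The WT signal was split into many peaks, the strongest of which, in the *Hoxa3* body, was in the top 0.376% of its list, whereas the *Ezh2* KO list placed 1 continuous peak of 13048 bp over *Hoxa2* and *Hoxa3* (top 5.42%) and 1 of 12511 bp from *Hoxa3* upstream exons through *Hoxa7* (top 0.0782%). The *Ezh2* R685C peak over *Hoxa2* was in the top 0.823%. Between *Hoxa4* and *Hoxa5*, from position 52145071 to position 52149939, peaks were called in WT only among the 5 lines. *Hoxa2* had the lowest body coverage in *Ezh2* R685C (55.5%, against 91.4% in WT and 86.8% in *Ezh2* KO), and *Hoxa4* the lowest in WT (73.1%).

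**Figure D2:**
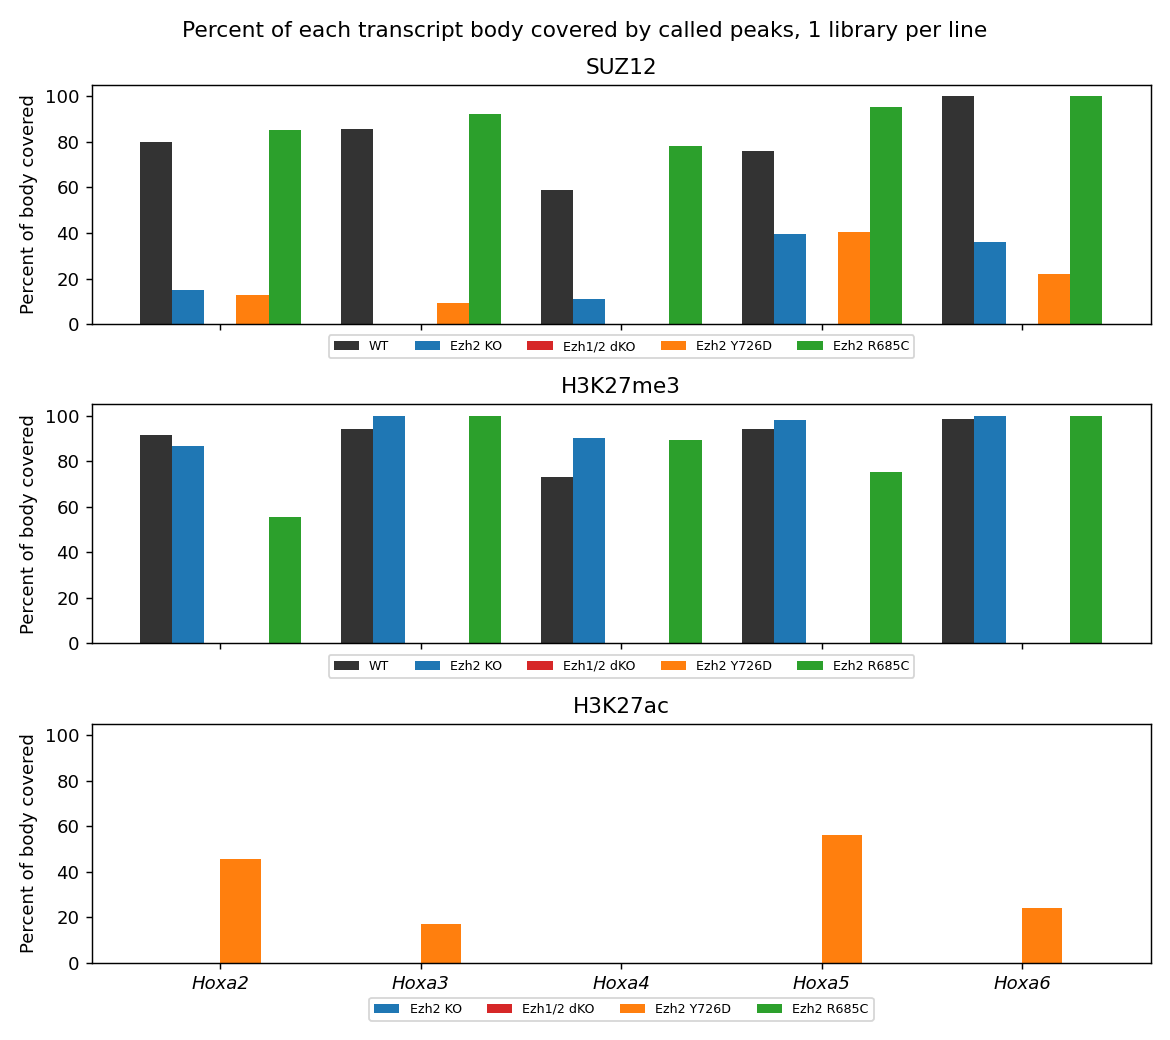
Percent of each transcript body covered by called SUZ12, H3K27me3 and H3K27ac peaks, by line (bars from 0, 1 library each; WT H3K27ac not analysed). H3K27ac appears in *Ezh2* Y726D alone among the 4 lines, from 17.1% of *Hoxa3* to 56.0% of *Hoxa5*, and not over *Hoxa4*.

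H3K27ac over the locus was called in *Ezh2* Y726D and in no other of the 4 mutant lines. The 11 peaks covered 18.2% of the locus, and *Hoxa2*, *Hoxa3*, *Hoxa5* and *Hoxa6* had a peak within 5 kb, as did 47.2% of all genes. Most of these peaks were weak. At a p of 1e-20 or less, or among the 10000 strongest peaks, the coverage was 2.54% of the locus. Within the locus only the strongest peak passed that p. At these settings 3 of the 5 genes had a peak within 5 kb. *Hoxa3* was among them through its upstream start, by a peak in *Hoxa7* outside the locus (-log10 p of 30.7). The strongest peak of the locus (-log10 p of 24.6, top 19.9% of the list) lay in the *Hoxa5* body, and 56.0% of that body was covered. The next (19.8) was a region of 2163 bp in the *Hoxa3* intron near -24.8 kb, and the third (18.0) lay over *Hoxa2*, 45.5% of whose body was covered. *Hoxa6* had 24.2% and *Hoxa3* 17.1% of the body covered; *Hoxa4* had none, and its nearest peak was 8322 bp away.

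The *Ezh2* R685C list was as long (41185 peaks, against 40829 in *Ezh2* Y726D) and held no H3K27ac peak in the locus, with 0 of 5 genes against 46.1% of all genes. *Ezh2* KO had likewise 0 of 5 (38.0% of all genes). In *Ezh1/2* dKO, with 17618 peaks, no peak lay in the locus; 1 of 5 genes, *Hoxa3*, was counted (28.8% of all genes) through its upstream start, from which a peak in *Hoxa7* was 3979 bp away. *Hoxa2*, *Hoxa5* and *Hoxa6* therefore had an H3K27ac peak in *Ezh2* Y726D and in none of the other 3 lines, a pattern seen at 5.77% of all genes and at 19.3% of genes with a WT SUZ12 peak. Of the 11 *Ezh2* Y726D H3K27ac peaks, 10 overlapped WT SUZ12 peaks, with 75.6% of their bases (WT SUZ12 covered 47.6% of the locus). In *Ezh2* Y726D itself, 5 of the 9 SUZ12 peaks overlapped an H3K27ac peak.

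The neighbour *Hoxa7* had an H3K27ac peak within 5 kb in *Ezh1/2* dKO and *Ezh2* Y726D and in neither of the other mutant lines. Its WT SUZ12 peak had a -log10 p of 129, above the 83.2 of the strongest peak over the members.

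HA-tagged EZH1 was called over the members in the dKO cells that carried it. HA peaks covered 36.7% of the locus in 12 regions, with all 5 genes within 5 kb (11.0% of all genes), against none in the *Ezh1/2* dKO control (0 of 5; 2.92% of all genes). The body coverage was 97.7% for *Hoxa6*, 76.2% for *Hoxa5*, 57.5% for *Hoxa2*, 57.4% for *Hoxa4* and 48.9% for *Hoxa3*. All 12 HA regions overlapped WT SUZ12 peaks, with 96.2% of their bases, and 11 of the 12 *Ezh2* KO SUZ12 peaks overlapped HA regions. These lists give positions only, so their strength could not be compared.

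H3K27me2, the intermediate methylation state, had no region in the locus in WT. In *Ezh2* KO a single region of 113548 bp (-log10 p of 7.16, in the top 0.297% of its list) lay over the whole locus and reached beyond *Hoxa7*. H3K27me2 regions are widespread, covering 424158800 bp of the genome in *Ezh2* KO and 355628889 bp in WT, and no share of all genes was computed for them. *Ezh1/2* dKO and *Ezh2* Y726D had 14 and 10 weak regions, with -log10 p no higher than 1.68 and 2.05, covering 15.9% and 15.3% of the locus. Over the genome the lists of these lines covered 639117586 and 627896893 bp, more than in WT. The study reports loss of all H3K27 methylation in both lines, so these regions are no evidence of H3K27me2 at the members. For H3K27me1, WT had no region and *Ezh2* KO and *Ezh1/2* dKO had 11 and 5 weak regions (highest -log10 p of 1.61 and 1.51); the *Ezh2* Y726D list held no region on chromosome 6 and was not used.

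ATAC-seq regions did not separate the lines. All 5 genes had a region within 5 kb in each of the 4 lines, but so did 95.2% of all genes in WT, 95.4% in *Ezh2* KO, 95.0% in *Ezh2* Y726D and 95.2% in the double knockout, so these counts say nothing about the members. In the same order the regions covered 39.9%, 38.2%, 42.8% and 46.9% of the locus. They were weak, with -log10 p no higher than 2.99, a value found in *Ezh2* Y726D. ATAC-seq lists were called down to lower scores than SUZ12 lists. The WT ATAC-seq list held 769948 regions, and its lowest -log10 p in the locus was 1.22, against 11.7 for WT SUZ12.

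**Figure D3:**
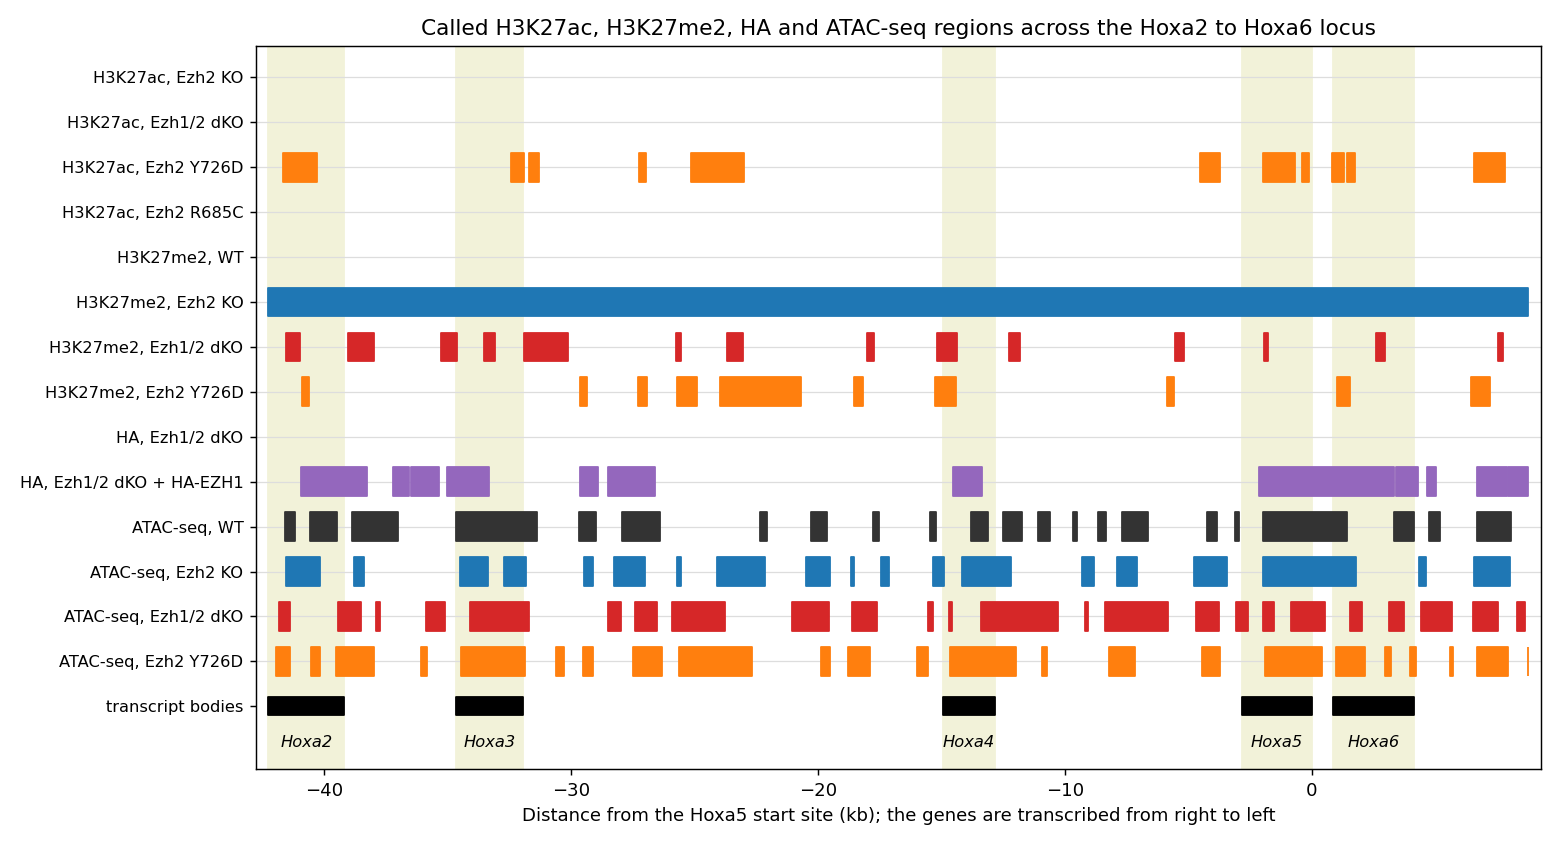
Called H3K27ac, H3K27me2, HA and ATAC-seq regions (bars) by line against the distance in kb from the *Hoxa5* start site, 1 library per row. H3K27ac bars occur in *Ezh2* Y726D only among 4 lines, the *Ezh2* KO H3K27me2 bar fills the map, and ATAC-seq regions are spread over all 4 lines.

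Transcripts of the 5 genes were scarce throughout. Libraries held 3604123 to 5181553 reads, and the members together took 1 to 5 reads in the WT and *Ezh2* KO libraries, 34 and 35 in *Ezh1/2* dKO, and 48 and 13 in *Ezh2* Y726D. Summed over the members, the normalized count (reads divided by the size factor of the library) was 3.07 ± 2.46 in WT and 3.06 ± 1.59 in *Ezh2* KO (mean ± SD, n = 2). It was 28.7 ± 19.98 in *Ezh2* Y726D and 29.6 ± 2.16 in *Ezh1/2* dKO. From reads summed per line, the *Ezh1/2* dKO to WT ratio was 8.79 (95% exact interval 3.84 to 24.8) and the *Ezh2* Y726D to WT ratio 9.02 (3.91 to 25.5), and *Ezh2* KO to WT gave 0.899 (0.240 to 3.36). These intervals cover counting error only, not the spread between libraries, which was wide in *Ezh2* Y726D. More expressing cells and more RNA per cell cannot be told apart in bulk RNA. As a check of the labels, *Ezh2* had 1 read in each *Ezh2* KO library and 1 and 2 in *Ezh1/2* dKO, against 448 and 567 in WT, and *Ezh1* was lower in *Ezh1/2* dKO and *Ezh2* Y726D (14.01 to 24.1 normalized counts) than in WT (227 and 377).

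*Hoxa3* was the member with the most reads. Its normalized counts were 0 and 0.963 in WT, 0 and 1.94 in *Ezh2* KO, 25.0 and 7.83 in *Ezh2* Y726D, and 14.8 and 21.3 in *Ezh1/2* dKO. Both dKO and both Y726D libraries lay above all WT and *Ezh2* KO libraries. It was the single member that reached a mean normalized count of 5 and was tested, and it did so through the lines in which it was high, so its calls add nothing beyond the reads of those lines.

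In the limma fit over 13872 genes, *Hoxa3* was called higher in *Ezh1/2* dKO than in WT (log2 fold change 3.75, SE 0.82, adjusted p = 0.0512), where 3.63% of tested genes were called higher. It was also called in *Ezh2* Y726D against WT (3.43, SE 0.82, adjusted p = 0.0796), where 1.66% were, and in *Ezh1/2* dKO against *Ezh2* KO (3.46, SE 0.82, adjusted p = 0.0719), where 3.52% were. It was not called in *Ezh2* KO against WT (0.29, SE 0.82, adjusted p = 0.950), where 0.0937% of genes were called higher. Fold changes are on the log2(normalized count + 1) scale, which understates those of low genes. The ratio of summed reads was 32.1 for *Ezh1/2* dKO to WT (interval 5.46 to 1298) and 31.1 for *Ezh2* Y726D to WT (5.22 to 1261), the WT count being a single read.

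The *Hoxa3* calls rested on 2 libraries per line, and a fit without 1 of them leaves a line with 1 library and has less power. In such limma fits the log2 fold change of *Ezh1/2* dKO against WT ranged from 3.26 to 4.23, and the call was not always kept. With all libraries it held in edgeR (adjusted p = 0.0675) and DESeq2 (0.0844). The *Ezh2* Y726D call was lost in edgeR (adjusted p = 0.101) and DESeq2 (0.117). Its limma log2 fold change was 3.43 with all libraries and 2.66 without *Ezh2* Y726D replicate 1. The call of *Ezh1/2* dKO against *Ezh2* KO was lost in limma whichever of the compared libraries was left out. In addition, 24.1% of the *Hoxa3* exon bases lie over exons annotated on the opposite strand, and 267 bp are shared with *Hoxa2*; the study's methods count reads without strand, so reads of these bases cannot be told apart from those of the antisense genes. The overlap was measured on GENCODE models, whereas the counting used RefSeq.

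*Hoxa2* had normalized counts of 1.33 and 2.89 in WT, 3.14 and 0 in *Ezh2* KO, 10.7 and 2.24 in *Ezh2* Y726D, and 11.5 and 4.44 in *Ezh1/2* dKO. Both *Ezh1/2* dKO libraries were above all WT and *Ezh2* KO libraries, whereas the *Ezh2* Y726D libraries straddled the higher WT value. With a mean of 4.53 over the 8 libraries it fell just below the filter. The ratio of summed reads was 3.63 in *Ezh1/2* dKO (19 reads against 4; interval 1.21 to 14.7) and 3.11 in *Ezh2* Y726D (14 against 4; 0.975 to 12.96).

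The more posterior members were at the limit of detection. *Hoxa5* had no read in WT, 1 in *Ezh2* KO, 6 in *Ezh2* Y726D (3.57 and 2.24 normalized counts) and 5 in *Ezh1/2* dKO (0.824 and 3.55). With 3 reads put in place of the WT count, the ratio to WT was 1.27 in *Ezh1/2* dKO and 1.77 in *Ezh2* Y726D. The counting error of the mutant reads is not included, so these values are not lower limits. *Hoxa6* had 1 read in WT, none in *Ezh2* KO, 1 in the double knockout and 5 in *Ezh2* Y726D (2.67 and 2.24 normalized counts), for the last a ratio to WT of 4.44 with an interval from 0.496 to 210. *Hoxa4* had no read in WT or *Ezh2* KO, 1 in *Ezh2* Y726D and 2 in the double knockout, too few for a fold. Any difference of *Hoxa4* between lines was not detectable at this depth.

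**Figure D4:**
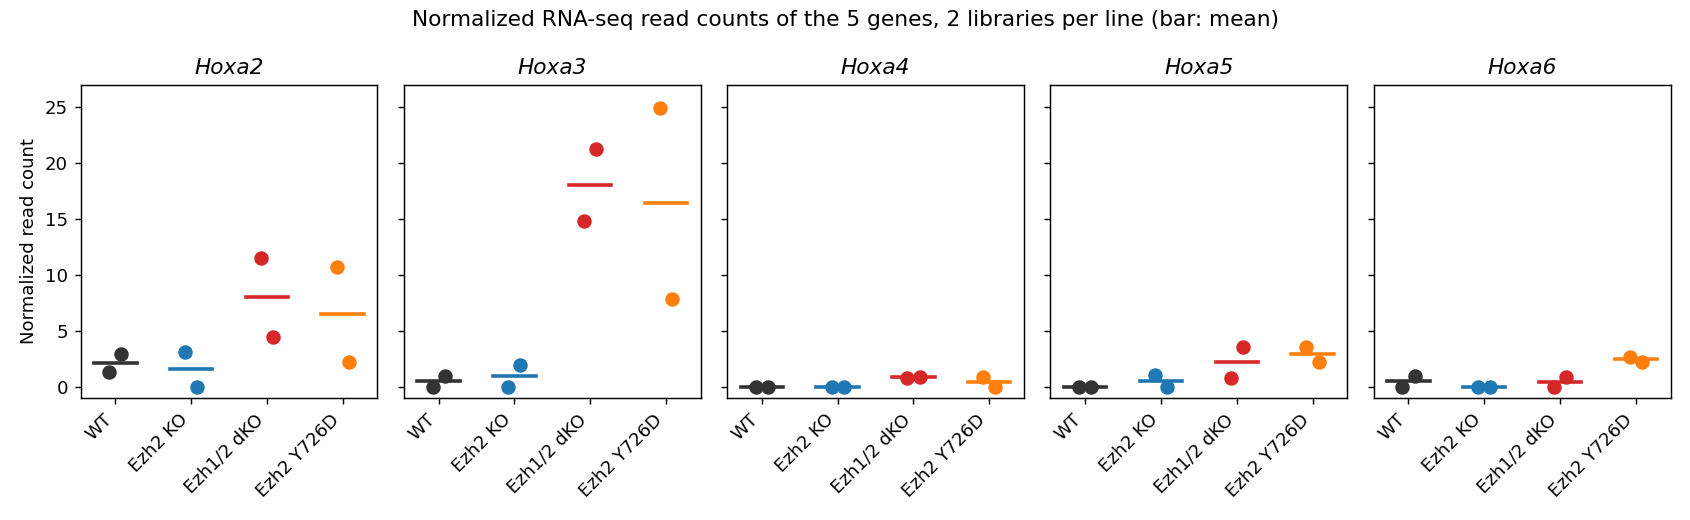
Normalized read counts of the 5 genes in each RNA-seq library (points, 2 per line; horizontal bar, mean). *Hoxa3* reaches 14.8 and 21.3 in *Ezh1/2* dKO and 25.0 and 7.83 in *Ezh2* Y726D, and *Hoxa4* stays below 1 in every library.

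Without the filter on low values 18055 genes were tested and 1 of the 5 members, *Hoxa3*, was called higher in *Ezh1/2* dKO than in WT (2.69% of genes) and none in *Ezh2* Y726D (0.925% of genes), where *Hoxa3* had an adjusted p of 0.106 by limma, *Hoxa5* 0.221 (unadjusted p 0.0125) and *Hoxa6* 0.349 (unadjusted p 0.0409). In *Ezh1/2* dKO *Hoxa5* had an adjusted p of 0.241 in the same limma fit (unadjusted p 0.0364). Per kb of annotated exon, the order of the mean levels in *Ezh1/2* dKO was *Hoxa2* (3.30 normalized counts per kb), *Hoxa3* (2.64), *Hoxa5* (1.17), *Hoxa4* (0.537) and *Hoxa6* (0.221). The libraries of *Hoxa2* and *Hoxa3* overlapped on this scale, as did those of *Hoxa5* and *Hoxa4*; *Hoxa3* lay above *Hoxa5* in both. In *Ezh2* Y726D the order was *Hoxa2* (2.67), *Hoxa3* (2.40), *Hoxa5* (1.55), *Hoxa6* (1.22) and *Hoxa4* (0.280). The first 4 overlapped their neighbours in the order. Exon length was the union of all GENCODE exons, 6836 bp for *Hoxa3* and 1594 to 2423 bp for the others. The reads were counted on RefSeq genes, so the place of *Hoxa3* in both orders depends on the gene model.

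Set beside the peaks, *Hoxa5* was the best covered by H3K27ac in *Ezh2* Y726D (56.0% of its body) and *Hoxa3* had 17.1% of its short body covered. Per kb of GENCODE exon, with the same limit, the libraries of both overlapped in that line (1.19 to 1.90 normalized counts for *Hoxa5*, 1.15 to 3.65 for *Hoxa3*). In *Ezh1/2* dKO *Hoxa3* and *Hoxa2* had 42 and 19 reads with no H3K27ac peak in the locus. *Hoxa7*, at the posterior end, was called higher in both lines (log2 fold change 3.43, SE 0.49, adjusted p = 0.0138 in *Ezh1/2* dKO and 4.49, SE 0.49, adjusted p = 0.00590 in *Ezh2* Y726D, limma), at 65.1 and 85.2 normalized counts in *Ezh1/2* dKO and 106 and 232 in *Ezh2* Y726D.

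Of the paralogs of groups 2 to 6 in the other HOX clusters, 8 of 10 were in the table and 2, *Hoxc4* and *Hoxc5*, had enough counts to be tested. *Hoxc4* was called higher in *Ezh1/2* dKO than in WT (log2 fold change 2.13, SE 0.57, adjusted p = 0.0913, limma), and *Hoxc5* (2.75, SE 0.83, adjusted p = 0.122) was not. The summed normalized count of the 8 paralogs was 11.6 to 21.3 in WT, 28.2 to 56.1 in *Ezh2* KO, 82.8 to 87.4 in *Ezh2* Y726D and 79.1 to 109 in the double knockout. *Hoxc4* made up most of the sum in all 8 libraries, with 7.70 to 21.3 in WT and 47.8 to 75.5 in the double knockout, and 5 of the 8 paralogs had no read in WT.

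HOX proteins bind DNA with cofactors of the MEIS, PBX and PKNOX families, and all 9 of these genes were tested. *Meis1* was called higher than in WT in *Ezh2* KO (log2 fold change 1.96, SE 0.36, adjusted p = 0.0909, limma), *Ezh2* Y726D (1.84, adjusted p = 0.0480) and the double knockout (2.73, adjusted p = 0.0110), and *Meis2* in *Ezh2* KO (1.36, SE 0.19, adjusted p = 0.0262). The other 7 were not called against WT, and the list's median log2 fold change was 0.42, 0.59 and 0.65 in that order, against -0.01, -0.01 and 0.01 over all genes tested. Of 11 tested upstream regulators of HOX genes, *Cdx4*, a caudal-type factor that activates them, was called higher in *Ezh1/2* dKO (2.56, SE 0.66, adjusted p = 0.0818, limma), and none was called in *Ezh2* KO or *Ezh2* Y726D.

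The ESC label held, with 0 of 8 ESC markers called in any comparison and summed counts between 11949 and 14926. The summed normalized count of the endoderm markers was 17.3 to 21.2 in WT, 9.41 to 27.1 in *Ezh2* KO, 44.7 to 60.6 in *Ezh2* Y726D and 132 to 156 in the double knockout. Of the 6 markers, 3 had no read in *Ezh2* KO and 2 none in *Ezh2* Y726D, and 2 of 3 tested, *Gata4* and *Dab2*, were called higher in *Ezh1/2* dKO than in WT and 0 of 3 in *Ezh2* Y726D, where *Hoxa3* was called. Of neuroectoderm markers 1 of 3, *Nes*, was called higher in *Ezh1/2* dKO than in *Ezh2* KO, and the summed counts of this list ranged from 524 to 1326. Of mesoderm markers 0 of 3 was called. Their sum was 61.4 to 63.5 in WT, 47.0 to 50.3 in *Ezh2* KO and 69.2 to 74.6 in the double knockout, and in *Ezh2* Y726D it was 76.7 in replicate 1 and 194 in replicate 2, the library with 13 member reads against 48 in its partner. Their part in the *Hoxa* reads was not tested.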

How the data were processed

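ChIP-seq and ATAC-seq reads were aligned by the authors to mm9 with Bowtie, duplicates were removed, and peaks were called with MACS2. The deposited lists give positions, summits and, except for HA, a -log10 p per region, and these were used as called. The read depth behind them is unknown. Lists of ATAC-seq, H3K27me1 and H3K27me2 reach lower scores than those of SUZ12, H3K27me3 and H3K27ac, so -log10 p is not comparable between these sets of lists. Peaks were counted within 5 kb of any GENCODE vM1 start site and as percent of bases covered.

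The deposited RNA-seq values are a normalized signal: read counts that the authors obtained with TopHat and HTSeq-count, without strand, on RefSeq genes, and divided by DESeq2 size factors. Dividing each library by its lowest value above 0 gave whole reads (100% within 0.01). The main test was limma 3.58.1 (R 4.3.3), with a trend, on log2(normalized count + 1) over all 8 libraries and 13872 genes with a mean of at least 5. Calls required a Benjamini-Hochberg adjusted p under 0.1 and a log2 fold change of 1 or more in size. Alternatives on reads used edgeR 4.0.16 and DESeq2 1.42.0. The limma step was tested on simulated data, with changes planted only in genes well expressed in WT. That test does not bear on a gene near the floor in WT, such as *Hoxa3* (WT mean of 0.481). The study describes its samples as biological replicates, and the labels do not say whether the 2 libraries of a line came from separate cultures, so p-values measure the spread between these libraries. The authors' own comparison tables (log2 fold changes and p-values) were not used.

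The genes named are the 5 members, *Ezh1* and *Ezh2*, the neighbour *Hoxa7*, paralogs with enough counts, called cofactors, regulators and cell type markers, and the 5 genes most like the members by Pearson's r. The members and lists were chosen with earlier results of these data known. The 2 summit windows and the patterns across lines were chosen after their values were seen. Peaks were processed with Python 3.11.15 and pandas 2.3.3.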

Additional observations from a re-analysis of the deposited data

How the results depend on the processing

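The number of members called, 1 (*Hoxa3*) in 3 of the 4 RNA-seq comparisons, was 0 in each of the 3 at an adjusted p under 0.05. It was also 0 with a mean of at least 20, which tests no member and so says nothing about the calls. For *Ezh2* Y726D against WT it was also 0 with no filter on low values, in edgeR, in DESeq2 and with only the 4 libraries compared. For *Ezh1/2* dKO against *Ezh2* KO it was also 0 with a pseudocount of 0.5, quantile normalization or DESeq2. Fits without 1 library, which leave 1 in a line and have less power, did not always keep the call against WT. They never kept that of *Ezh1/2* dKO against *Ezh2* KO. The *Hoxa3* log2 fold change of *Ezh2* KO against WT, not called, ranged from -0.49 to 1.07, and it turned negative without *Ezh2* KO replicate 2 (-0.49) or WT replicate 1 (-0.20). Deviations of same-numbered libraries correlated at 0.22 to 0.29 between the mutant lines and at -0.41 to -0.07 between WT and each of them, so the numbers were not treated as pairs. With a replicate block the count was 0 for *Ezh2* Y726D against WT (limma adjusted p = 0.114) and for *Ezh1/2* dKO against *Ezh2* KO (0.109), and 1 for *Ezh1/2* dKO against WT (0.0782). The cause of the other changes was not tested.

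At a p of 1e-20 or less, SUZ12 peaks were within 5 kb of 3 members in *Ezh2* KO and 0 in *Ezh2* Y726D, which also had 0 among its 1000 strongest peaks. WT SUZ12 peaks overlapped by *Ezh2* KO fell from 8 to 1 when 50% of the peak had to be covered and to 3 at the stricter p, and those overlapped by *Ezh2* Y726D from 5 to 1 and 0. WT H3K27me3 peaks overlapped fell to 9 at that p in both *Ezh2* KO and *Ezh2* R685C. The 1 member with H3K27ac in *Ezh1/2* dKO was 0 at that p, among the 10000 strongest peaks and within 1 kb. Among the 20000 strongest ATAC-seq regions, 2 members had one in WT, 1 in *Ezh2* Y726D and 0 in the other lines. Transcript differences below a few reads were not detectable at this depth.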

Other observations

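The genes whose pattern over the 8 RNA-seq libraries was most like that of the summed members, among 13871 other tested genes and by Pearson's r of log2(normalized count + 1), were *Susd3* (r = 0.990), *Efhd1* (0.980), *Hoxd8* (0.980), *Hoxd10* (0.978) and *Lhfp* (0.974). *Susd3* had mean normalized counts of 2.59 in WT, 2.05 in *Ezh2* KO, 27.6 in *Ezh2* Y726D and 36.2 in the double knockout. *Hoxd8* and *Hoxd10* belong to the HoxD cluster. *Hoxd8* had means of 0.481, 1.53, 13.5 and 17.9 in the same order, and *Hoxd10* 0.963, 0.523, 12.6 and 22.8. Of all genes compared, 97 had r above 0.9. The 8 points share 4 lines and the libraries' size factors, so the order of these genes is a description of these libraries.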
